A study of Homo sapiens with 12 samples.

Results

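The clustered protocadherins are cell-adhesion proteins of the cadherin family whose genes lie in 3 neighbouring clusters, alpha, beta and gamma, on human chromosome 5. Every gene whose symbol in the deposited count tables starts with PCDHA, PCDHB or PCDHG was taken as a member, which gave 57 of 27011 genes: 15 alpha, 19 beta and 23 gamma rows. They were measured in HEK293T, a human embryonic kidney cell line that carries the SV40 large T antigen, by RNA-seq (mRNA abundance) and by Ribo-seq (sequencing of ribosome-protected mRNA fragments, here called footprints). The 3 genotypes were wild type (WT), 4EHP-null and GIGYF1/2-null. 4EHP, encoded by EIF4E2, binds the mRNA cap without starting translation, and GIGYF1 and GIGYF2 are adaptor proteins that work with it in translational repression and mRNA decay. Each genotype had 2 biological replicates per assay, 12 libraries in all, from untreated cells harvested 24 h after plating on 15 cm dishes. The labels do not say how the null alleles were made, where in the genes they lie or whether each null line is 1 clone.

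Each alpha and gamma mRNA joins 1 variable first exon, with a promoter of its own, to constant exons that all members of the cluster use. The variable exon encodes the extracellular cadherin repeats, and the constant exons encode the shared end of the cytoplasmic domain. Beta genes are single exons without constant exons. In neurons each cell expresses a small, partly random set of these isoforms, and the proteins bind in trans to the same isoform on another cell, which underlies self-avoidance of neurites. Promoter choice depends on CTCF and cohesin, which join promoters to distant enhancers, and on DNA methylation. The C-type genes (PCDHAC1, PCDHAC2, PCDHGC3, PCDHGC4 and PCDHGC5) lie next to the constant exons and are less random in their use.

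Because each first exon has its own promoter, the promoters of the rows that the results turn on are shown. The RefSeq promoter table for build GRCh38.p14 held 47 of the 57 members. The 11 windows that follow are 40 bases each on the plus strand, with the letters CGCTG in capitals. These letters occur in the core of the conserved element of clustered protocadherin promoters. They were marked by their letters alone, and whether a marked copy, as in PCDHGC4, belongs to that element was not tested. They comprise the alpha and beta rows with the most RNA-seq counts, one beta row with footprints and little mRNA (PCDHB9), the 3 gamma rows that exceeded the other gamma rows, and comparison rows of each type.
PCDHA8 (chr5:140841122-140841161): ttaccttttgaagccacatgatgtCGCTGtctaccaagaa
PCDHA10 (chr5:140855833-140855872): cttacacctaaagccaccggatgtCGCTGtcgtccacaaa
PCDHB2 (chr5:141094536-141094575): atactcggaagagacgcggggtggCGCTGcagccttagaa
PCDHB9 (chr5:141187066-141187105): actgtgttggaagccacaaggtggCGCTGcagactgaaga
PCDHB15 (chr5:141245306-141245345): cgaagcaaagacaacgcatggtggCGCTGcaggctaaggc
PCDHGA1 (chr5:141330395-141330434): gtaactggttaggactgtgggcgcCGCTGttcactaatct
PCDHGA8 (chr5:141392560-141392599): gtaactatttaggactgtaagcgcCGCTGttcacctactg
PCDHGA9 (chr5:141402706-141402745): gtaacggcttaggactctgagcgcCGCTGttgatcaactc
PCDHGA11 (chr5:141420964-141421003): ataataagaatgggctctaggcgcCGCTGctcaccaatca
PCDHGC3 (chr5:141475891-141475930): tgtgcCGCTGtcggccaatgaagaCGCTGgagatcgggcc
PCDHGC4 (chr5:141484944-141484983): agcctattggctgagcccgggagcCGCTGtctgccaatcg

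The letters CGCTG occurred, on either strand, within the 250 bases before the start of 40 of the 47 members, 9 of 13 alpha, 11 of 14 beta and all 20 gamma rows with an entry. Of all 35116 RefSeq promoters, 40.8% held them, so the 5 letters alone are common. Longer strings separated the clusters. For each cluster the most frequent string of 10 bases holding CGCT was taken. TGATGTCGCT stood in 8 alpha promoters and in no beta or gamma promoter, against 0.0313% of all promoters. GGTGGCGCTG stood in 11 beta promoters and in no alpha or gamma promoter, against 0.225% of all. GCGCCGCTGT stood in 9 gamma promoters and in no alpha or beta promoter, against 0.114% of all. These strings were taken from the promoters they describe and searched on both strands, so their counts are a description only. The beta and gamma strings contain CGCTG, and the alpha string shares CGCT with it; PCDHA4 and PCDHA7 held the alpha string without CGCTG. PCDHGC3 held a pair of copies of CGCTG within the window shown. PCDHGA11, PCDHGC3 and PCDHGC4 did not hold GCGCCGCTGT, but it stood in only 9 of 20 gamma promoters. PCDHGA2, PCDHGA3, PCDHGB2 and PCDHGB3 were among the others without it.

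Total counts ran from 26143118 to 38175701 per RNA-seq library and from 6536493 to 10816080 per Ribo-seq library. EIF4E2 mRNA was 120.0 CPM (counts scaled to the total count of the library) in both WT libraries and 51.7 and 46.9 CPM in the 4EHP-null libraries, a log2 change of −1.33 ± 0.08 (SE; edgeR adjusted p = 5.92e-07). GIGYF1 mRNA was 40.2 and 39.7 CPM in WT and 22.7 and 26.5 CPM in GIGYF1/2-null (−0.76 ± 0.11, edgeR adjusted p = 0.000691). GIGYF2 mRNA was 79.3 and 64.4 CPM in WT and 97.9 and 83.3 CPM in GIGYF1/2-null, with a log2 change of 0.28 (edgeR adjusted p = 0.124), so its mRNA level does not check the label. The 6 HEK293T markers, mostly VIM, summed to 974 to 1120 CPM in WT RNA-seq, 710 to 840 in 4EHP-null and 895 to 1140 in GIGYF1/2-null. The 5 fibroblast markers (COL1A2 at 0) summed to 7.51 to 8.54 CPM in WT, rather more in 4EHP-null (8.58 CPM at the lowest) and 13.9 to 14.6 CPM in GIGYF1/2-null. The 5 leukocyte markers (PTPRC at 0) summed to 2.35 to 2.72 CPM in WT, 2.42 to 2.56 in 4EHP-null and 2.76 to 3.66 in GIGYF1/2-null. In the same order, 4 endothelial markers summed to 0.0993 to 0.629, 0.372 to 0.689 and 0.577 to 0.893 CPM. In Ribo-seq the leukocyte, endothelial and fibroblast sums were higher in both null genotypes than in WT, and the HEK293T sum was lower. In the order WT, 4EHP-null and GIGYF1/2-null the HEK293T sums were 1890 to 2320, 1470 to 1640 and 1320 to 1830 CPM. The fibroblast sums were 6.31 to 9.05, 9.94 to 12.7 and 11.8 to 13.9 CPM. The leukocyte sums were 6.17 to 6.69, 8.87 to 10.4 and 9.48 to 11.6 CPM. The endothelial sums were 2.45 to 4.16, 5.2 to 5.86 and 5.16 to 7.77 CPM.

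Of the 3 clusters, gamma carried nearly all of the mRNA counts. The gamma rows summed to 139 ± 21.8 CPM (SD, n = 2) in WT RNA-seq, the alpha rows to 2.71 ± 1.58 and the beta rows to 1.53 ± 0.617. In 4EHP-null the gamma sum was 65.9 ± 5.03 CPM and in GIGYF1/2-null 91.8 ± 0.823 CPM. The gamma sum was thus highest in both WT libraries (124 and 155 CPM) and intermediate in GIGYF1/2-null (91.3 and 92.4). It was lowest in 4EHP-null (69.4 and 62.3), and no genotype overlapped another. Here and below, lack of overlap between groups of 2 libraries is a description only, since its share over all genes was not counted. Alpha sums overlapped between genotypes (WT 1.59 and 3.82, 4EHP-null 1.83 and 1.68, GIGYF1/2-null 2.76 and 0.476 CPM), and so did beta sums (WT 1.09 and 1.96, 4EHP-null 1.49 and 0.88, GIGYF1/2-null 1.79 and 1.34 CPM). In log2 terms the RNA-seq sums changed in 4EHP-null against WT by −1.14 (gamma), −0.70 (alpha) and −0.43 (beta), and in GIGYF1/2-null by −0.67, −0.84 and −0.05. No test was made of these sums, which count shared reads many times over. In bulk libraries fewer expressing cells and less RNA per cell cannot be told apart.

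The gamma rows were near copies of each other in the table. In every RNA-seq library the lowest of the 22 gamma rows with counts (PCDHGB8P, a pseudogene, had none) held 156 and 252 counts in WT, 94 and 68 in 4EHP-null and 121 and 131 in GIGYF1/2-null. Of the 22 rows, 17 lay within 10 counts of that value in all 6 libraries, and 3, among them PCDHGA8, equalled it in all 6. Multiplied by 22, the lowest row accounted for 91.7% to 93.9% of all gamma counts in each library. The annotated gamma genes share their constant exons, so a read there can be counted in every row. A gamma row is described here as a shared pool, the count of the lowest row, plus the counts of its own above that. On which exons the reads lie was not tested. Alpha rows stood far lower, with a lowest row of 0 to 8 counts per library. Of 15 alpha rows, 6 equalled that lowest row in all 6 libraries. That 14 of 15 lay within 10 counts of it says little, since 11 stayed under 10 counts in every library.

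**Figure D1:**
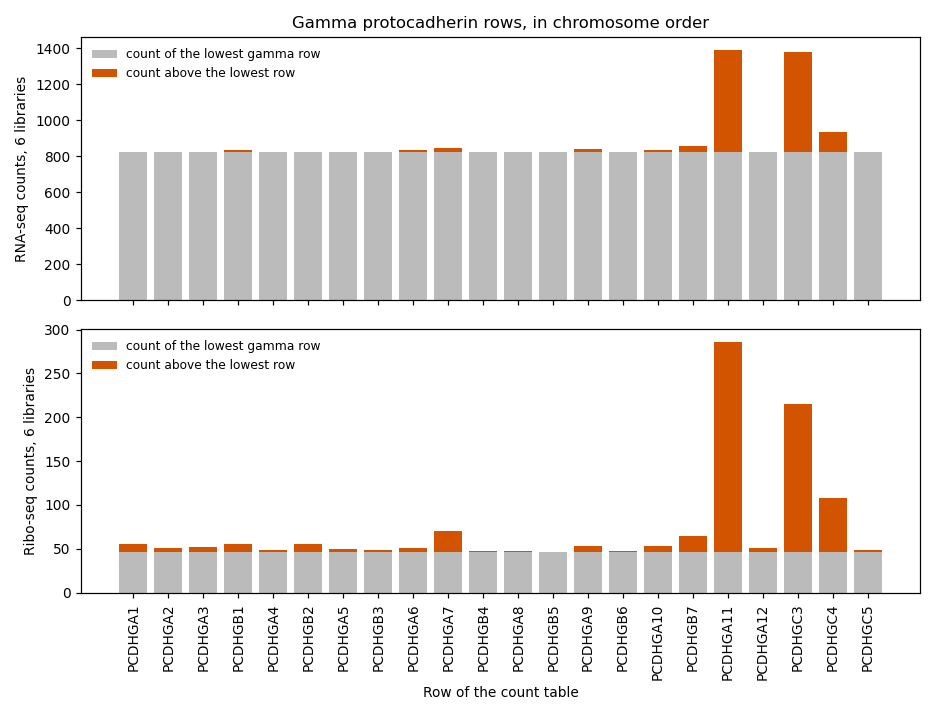
Counts of the 22 gamma rows summed over 6 RNA-seq libraries (top) and 6 Ribo-seq libraries (bottom), in chromosome order on the x axis. Grey is the count of the lowest gamma row in each library and orange what a row has above it. PCDHGA11, PCDHGC3 and PCDHGC4 stand out with 570, 557 and 112 RNA-seq counts above the lowest row.

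What stood above the shared pool came from few genes. In RNA-seq PCDHGA11 held 41.2% of the summed excess, PCDHGC3 40.3% and PCDHGC4 8.1%. The next were PCDHGB7 with 33 counts and PCDHGA7 with 26 counts over the 6 libraries, while PCDHGA3, PCDHGA8 and PCDHGB5 had none. Among alpha rows PCDHA10 held 69 counts above the pool, 60.5% of the alpha excess, and the C-type rows PCDHAC1 and PCDHAC2 held 2 and 0. Counts of their own were thus found above all in 3 gamma rows, 2 of them C-type, and in 1 alpha row. Per kilobase of the deposited length, and with the pool included, the WT level was 2.03 ± 0.0896 CPM for PCDHGC3 and 1.76 ± 0.213 for PCDHGA11 (SD, n = 2), against 0.181 ± 0.0372 for PCDHB2 and 0.0945 ± 0.0327 for PCDHA10, the highest beta and alpha rows by RNA-seq count.

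In 4EHP-null cells all 22 gamma rows with counts were lower in RNA-seq. Of the 57 members 25 passed the low-count filter (22 gamma, PCDHA10, PCDHB2 and PCDHB15), 22 were called lower at an edgeR adjusted p under 0.05 and none higher. Over all 15637 genes tested 13.1% were called, and 6.63% were called lower. All 22 gamma rows had at least 10 counts in each of the 6 libraries, so none passed the filter through WT alone. Their log2 changes ran from −1.19 to −0.90 with a median of −1.14, beside −0.003 for all genes, and edgeR adjusted p from 0.000525 to 0.00307. Since they share 1 pool, the 22 calls are far fewer than 22 separate measurements. Markers of the line moved with genotype as well. Of the 6 HEK293T markers 1 was called higher and 2 lower in 4EHP-null, and 4 higher and 1 lower in GIGYF1/2-null. NEFM, a neurofilament gene, stood at 207 and 170 CPM in WT, 51.4 and 44.8 in 4EHP-null and 303 and 227 in GIGYF1/2-null, and KRT8, a keratin gene, at 12.7 and 12.8, 27.8 and 24.5, and 32.3 and 31.1 CPM. Of 3 fibroblast markers tested, LUM was called higher in both null genotypes and COL1A1 in GIGYF1/2-null. The part of these markers in the gamma change was not tested.

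PCDHGC3, a C-type isoform, had 9.80 and 10.4 CPM in WT, 5.18 and 4.32 in 4EHP-null and 6.12 and 6.37 in GIGYF1/2-null. Both null genotypes lay below both WT libraries, with no overlap between any of the 3 groups. Its log2 change was −1.13 ± 0.15 in 4EHP-null (edgeR adjusted p = 0.000525) and −0.75 ± 0.15 in GIGYF1/2-null (edgeR adjusted p = 0.00521). PCDHGC4, which neurons need for survival, had 5.92 and 7.52 CPM in WT, 3.25 and 2.83 in 4EHP-null and 4.36 and 4.55 in GIGYF1/2-null. Its row again did not overlap between genotypes, with changes of −1.19 ± 0.19 (edgeR adjusted p = 0.0016) and −0.66 ± 0.18 (edgeR adjusted p = 0.0323). PCDHGA11, one of the A-type gamma isoforms, had 8.54 and 10.1 CPM in WT, 5.27 and 5.13 in 4EHP-null and 6.76 and 6.91 in GIGYF1/2-null. The groups were again apart, but its changes were the smallest of the gamma rows, −0.90 ± 0.15 (edgeR adjusted p = 0.00238) and −0.51 ± 0.15 (edgeR adjusted p = 0.0389). PCDHGA8, whose count equals the shared pool, had 5.16 and 6.60 CPM in WT, 2.91 and 2.60 in 4EHP-null and 3.88 and 3.90 in GIGYF1/2-null. The pool read through this row changed by −1.14 ± 0.20 in 4EHP-null (edgeR adjusted p = 0.00259) and −0.66 ± 0.19 in GIGYF1/2-null (edgeR adjusted p = 0.0375).

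**Figure D2:**
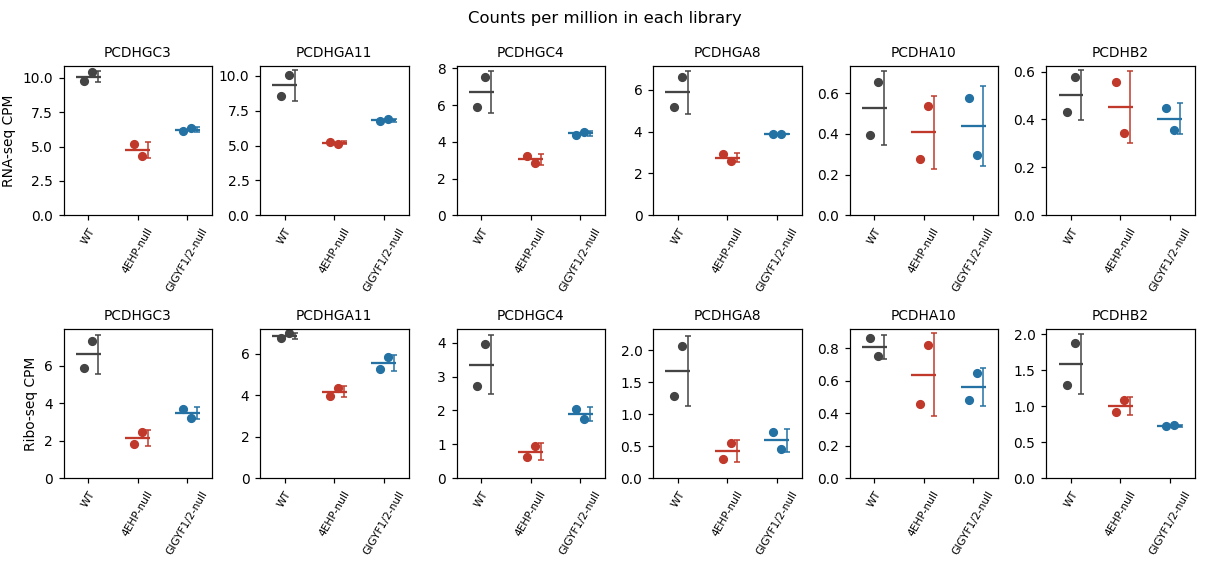
CPM in each library (points), with the mean (line) and SD (bar) of 2 libraries per genotype, for 4 gamma rows and the highest alpha and beta rows in RNA-seq (top) and Ribo-seq (bottom). In RNA-seq the gamma rows of both null genotypes lie below both WT libraries, PCDHGC3 at 4.32 to 6.37 against 9.80 and 10.4 CPM, while PCDHA10 and PCDHB2 overlap between genotypes.

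In GIGYF1/2-null the same 22 gamma rows were called lower in RNA-seq and no member higher, with 11.9% of all genes called and 6.75% called lower. The log2 changes ran from −0.75 to −0.51 with a median of −0.67, and edgeR adjusted p from 0.00521 to 0.0403, close to the threshold. The call depended on single libraries. It fell to 10 members without WT replicate 1, and to 1 member each without WT replicate 2, GIGYF1/2-null replicate 1 or GIGYF1/2-null replicate 2. PCDHGC3 was the row called in all 4 of those fits, with a largest adjusted p of 0.0479. DESeq2 called 3 of the 25 members and upper-quartile scaling 14. What share of all genes these alternative fits called was not counted. In 4EHP-null, leaving out any 1 library gave 21 or 22 calls. Directly compared, the gamma rows were higher in GIGYF1/2-null than in 4EHP-null by a median log2 of 0.48. EdgeR, DESeq2 and limma-voom called none of them, while edgeR called 24.4% of all genes. Their edgeR adjusted p was 0.0621 to 0.13. All 22 had an unadjusted edgeR p under 0.05, a threshold at which the share of all genes was not counted.

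The table was then tested with the shared pool counted once. For this, chosen after the data were seen, the lowest gamma and the lowest alpha row of each library were moved to 1 row each and subtracted from the others, which left 7 rows to test in RNA-seq. PCDHGC3 then had 140 and 146 counts of its own in WT, 73 and 45 in 4EHP-null and 70 and 83 in GIGYF1/2-null. In CPM this was 4.23 ± 0.572, 1.99 ± 0.383 and 2.36 ± 0.161 (SD, n = 2). Both null genotypes were again below both WT libraries, and they overlapped each other. Its own counts changed by −1.12 ± 0.23 in 4EHP-null (edgeR adjusted p = 0.00796) and −0.90 ± 0.23 in GIGYF1/2-null (edgeR adjusted p = 0.0225). The first of these calls was lost without WT replicate 1 or 4EHP-null replicate 2 (largest adjusted p 0.0776), and the second without any 1 library (largest adjusted p 0.183).

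PCDHGC4 had 23 and 35 counts of its own in WT, 11 and 6 in 4EHP-null and 15 and 22 in GIGYF1/2-null. It was called lower in 4EHP-null (−1.58 ± 0.46, edgeR adjusted p = 0.0406), a call lost without any 1 of the 4 libraries, with log2 changes from −1.90 to −1.35. In GIGYF1/2-null its change of −0.62 ± 0.41 was not called (edgeR adjusted p = 0.385). PCDHGA11 had 102 and 135 counts of its own in WT, 76 and 66 in 4EHP-null and 90 and 101 in GIGYF1/2-null. The own counts of PCDHGA11 were lower in 4EHP-null by less than those of PCDHGC3 and were not called in either genotype (−0.56 ± 0.21, edgeR adjusted p = 0.107, and −0.29 ± 0.21, edgeR adjusted p = 0.422). The difference between PCDHGA11 and PCDHGC3 was not tested. PCDHGA11 was thus called in the table as deposited and not by its own counts. The gamma pool was the third row called in 4EHP-null and, with PCDHGC3, 1 of 2 in GIGYF1/2-null (−1.14 ± 0.20 and −0.66 ± 0.19, edgeR adjusted p = 0.00276 and 0.038). Without any 1 library the pool kept its 4EHP-null call (log2 changes from −1.31 to −0.95). Its GIGYF1/2-null call was lost without any 1 library (−0.83 to −0.47), with upper-quartile scaling and with DESeq2.

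**Figure D3:**
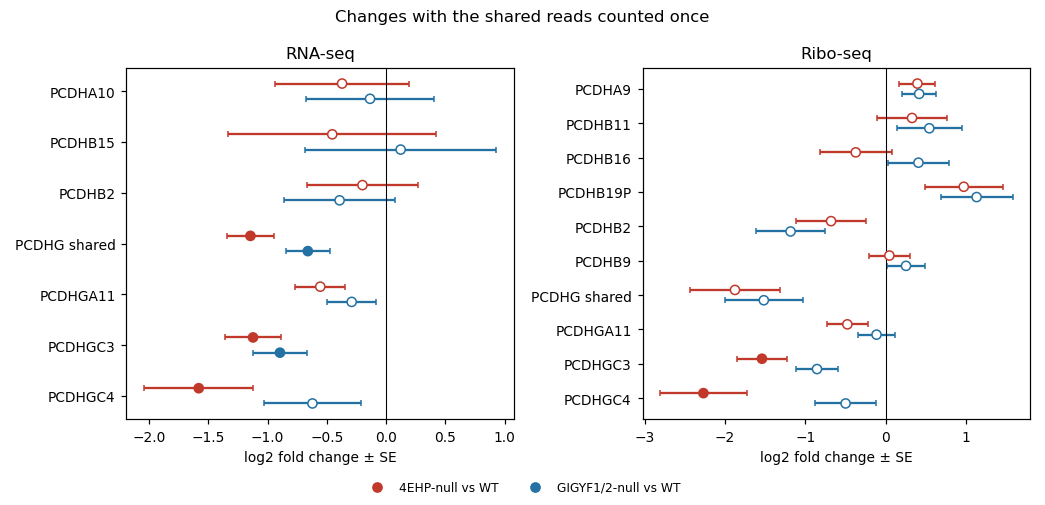
Log2 fold changes with standard errors from edgeR when the reads shared within the alpha and gamma clusters are counted once, in RNA-seq (left) and Ribo-seq (right), for 4EHP-null (red) and GIGYF1/2-null (blue) against WT. Filled points have an adjusted p under 0.05, and PCDHG shared is the gamma pool. In RNA-seq PCDHGC3 and PCDHGC4 are called in 4EHP-null at −1.12 and −1.58, and PCDHGA11 is open at −0.56.

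Alpha and beta mRNA was too low for most members to be tested. In RNA-seq 14 of 15 alpha and 17 of 19 beta rows did not pass the filter, 11 alpha and 16 beta rows stayed under 10 counts in every library, and 5 beta rows had no count at all. PCDHA10 had 12 and 25 counts in WT, 9 and 14 in 4EHP-null and 18 and 10 in GIGYF1/2-null. These groups overlapped, with log2 changes of −0.47 ± 0.54 (edgeR adjusted p = 0.628) and −0.35 ± 0.52 (edgeR adjusted p = 0.734). PCDHB2, the beta row with the most mRNA, had 13 and 22 counts in WT, 18 and 9 in 4EHP-null and 14 and 12 in GIGYF1/2-null. It overlapped as well (−0.20 ± 0.47, edgeR adjusted p = 0.83, and −0.39 ± 0.47, edgeR adjusted p = 0.667). PCDHB15 had 4 and 13 counts in WT, 11 and 0 in 4EHP-null and 9 and 9 in GIGYF1/2-null, and was not called (edgeR adjusted p = 0.79 and 0.946). With standard errors of 0.47 to 0.88, a fall of the size seen in gamma was not detectable in these rows at this depth.

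Footprints of the gamma rows were lower in 4EHP-null as well. The gamma rows summed to 41.9 and 58.4 CPM in WT Ribo-seq, 13.3 and 19.4 in 4EHP-null and 27.6 and 21.9 in GIGYF1/2-null, with no overlap between genotypes. Alpha sums overlapped (8.22 ± 0.96, 9.57 ± 1.39 and 9.43 ± 1.96 CPM; SD, n = 2). Beta sums were 16.4 ± 1.75, 15.1 ± 0.102 and 16.9 ± 3.40 CPM. Both WT libraries (17.6 and 15.2 CPM) lay above both 4EHP-null libraries (15.1 and 15.0), the nearer one barely. The GIGYF1/2-null libraries (14.5 and 19.3 CPM) overlapped both other genotypes. Of the 28 members that passed the filter, 3 gamma rows were called lower in 4EHP-null by edgeR and none higher, against 3.04% of all genes called and 1.46% called lower. The filter itself bears on this: 2 of the 22 gamma rows, PCDHGC3 and PCDHGA11, had at least 10 footprints in every library, and the other 20 could pass only through their higher libraries, so a lower value in the remaining ones is partly fixed by the filter.

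PCDHGC3 had 41 and 78 footprints in WT, 12 and 18 in 4EHP-null and 31 and 35 in GIGYF1/2-null. In CPM this was 5.88 and 7.35, 1.84 and 2.45, and 3.72 and 3.24, and no genotype overlapped another. It was called in 4EHP-null (−1.62 ± 0.29, edgeR adjusted p = 0.0134) and not in GIGYF1/2-null (−0.98 ± 0.25, edgeR adjusted p = 0.0749). PCDHGC4 had 19 and 42 footprints in WT, 4 and 7 in 4EHP-null and 17 and 19 in GIGYF1/2-null, and was called in 4EHP-null (−2.08 ± 0.42, edgeR adjusted p = 0.0225). PCDHGB7, a B-type gamma row, had 12 and 30 footprints in WT and 2 and 4 in 4EHP-null and was called as well (−2.39 ± 0.52, edgeR adjusted p = 0.0312); of these, 3 and 10 in WT and none in 4EHP-null lay above the shared pool. PCDHGB7 passed the filter through WT alone (1.72 and 2.83 CPM, against 0.306 to 0.925 CPM in the null libraries), so its call adds no support. These 3 calls also rested on single libraries, since 1 was left without WT replicate 1, and 0 when WT replicate 2 or either 4EHP-null library was left out.

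PCDHGA11 had 47 and 74 footprints in WT, 26 and 32 in 4EHP-null and 44 and 63 in GIGYF1/2-null. Its CPM values lay apart in 4EHP-null (3.98 and 4.36, against 6.74 and 6.97 CPM in WT), but its change was not called (−0.71 ± 0.23, edgeR adjusted p = 0.132). With the shared footprints counted once, PCDHGC3 held 32 and 58 footprints of its own in WT and 10 and 14 in 4EHP-null (−1.54 ± 0.31, edgeR adjusted p = 0.0214). PCDHGC4 held 10 and 22 in WT and 2 and 3 in 4EHP-null (−2.27 ± 0.54, edgeR adjusted p = 0.0447). Both calls were lost when any 1 library was left out (largest adjusted p 0.164 and 0.297). PCDHGA11, with 38 and 54 in WT and 24 and 28 in 4EHP-null, was not called (−0.48 ± 0.25, edgeR adjusted p = 0.336). In GIGYF1/2-null none of the 3 was called by its own footprints, PCDHGC3 coming nearest (−0.85 ± 0.27, edgeR adjusted p = 0.124). The pool of shared footprints, counted once, was not called in either genotype (−1.87 ± 0.56 and −1.52 ± 0.48, edgeR adjusted p = 0.101 and 0.129).

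In GIGYF1/2-null Ribo-seq edgeR called 0 of 28 members, against 2.09% of all genes called. At an unadjusted p under 0.05 stood 22 members (20 gamma rows, all lower in GIGYF1/2-null, and 2 beta rows). The share of all genes at that threshold was not counted. The gamma rows share 1 pool and most passed the filter through their WT libraries, so their common direction is no support. DESeq2 and limma-voom called 0 as well, but with the replicate number as a block 14 members were called, all lower. The same block gave 18 in place of 3 in 4EHP-null. What share of all genes the block fits called was not counted. The 2 beta rows were PCDHB2, at 1.29 and 1.88 CPM in WT and 0.720 and 0.740 in GIGYF1/2-null (−1.18 ± 0.43, edgeR adjusted p = 0.184), and PCDHB19P, at 0.574 and 1.41 CPM in WT and 1.68 and 3.05 in GIGYF1/2-null (1.13 ± 0.45, edgeR adjusted p = 0.212). Neither overlapped between WT and GIGYF1/2-null, a description that adds no support for these uncalled rows, and their signs were opposite. Between the null genotypes edgeR, DESeq2 and limma-voom called 0 of 28 members in Ribo-seq, while edgeR called 10.8% of all genes. At an unadjusted edgeR p under 0.05 stood 1 member, PCDHGC4 (1.19 ± 0.46, edgeR adjusted p = 0.128).

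Translational efficiency (TE), the change in footprints beyond that in mRNA, fitted in 1 model over 12 libraries, was testable for 23 members: PCDHB2 and the 22 gamma rows. EdgeR and limma-voom called 0 of 23 members in 4EHP-null, in GIGYF1/2-null and between the null genotypes. Of all genes edgeR called 0.0905%, 0.0453% and 0.181% there. At an unadjusted edgeR p under 0.05 stood 1 member in 4EHP-null, and 0 in GIGYF1/2-null and between the null genotypes. PCDHGB7 was the one under 0.05, with a TE change of −1.29 ± 0.56 in 4EHP-null (edgeR adjusted p = 0.603). PCDHGC3 changed in TE by −0.49 ± 0.32 in 4EHP-null (edgeR adjusted p = 0.81) and −0.24 ± 0.28 in GIGYF1/2-null (edgeR adjusted p = 0.999), and PCDHGA11 by 0.19 ± 0.26 (edgeR adjusted p = 0.933) and 0.17 ± 0.24 (edgeR adjusted p = 0.999). Across the 22 gamma rows the median TE change was −0.75 in 4EHP-null (−1.29 to 0.19). In GIGYF1/2-null it was −0.78 (−0.97 to 0.17). These rows share 1 pool and most passed the Ribo-seq filter through their WT libraries, so their common direction is no support. The gamma pool, read through PCDHGA8, changed in TE by −0.85 ± 0.61 and −0.97 ± 0.51 (edgeR adjusted p = 0.834 and 0.999). With such standard errors, TE changes of that size could not be told from 0.

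Several alpha and beta rows had many footprints and almost no mRNA. PCDHA9 had 354 footprints over 6 Ribo-seq libraries and 19 RNA-seq counts, the latter all within the alpha pool, a footprint-to-mRNA ratio of 70.6 in CPM. PCDHB9 had 281 footprints and 9 RNA-seq counts (ratio 118). PCDHB11 had 77 footprints and 6 RNA-seq counts (48.6), and PCDHB16 had 77 and 15 (19.4). PCDHB19P, a pseudogene, had 95 footprints and 2 RNA-seq counts. These 5 were the members with a ratio over 10 among the 21 members with at least 50 footprints. Over all 14241 genes with at least 50 footprints and an RNA-seq count, the median ratio was 0.754 and 8.8% exceeded 10, so such rows are not peculiar to the clusters. Gamma rows with at least 50 footprints lay at 0.23 to 0.778, PCDHGA11 highest.

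The PCDHA9 footprints were 40 and 60 in WT, 54 and 49 in 4EHP-null and 63 and 88 in GIGYF1/2-null, or 5.74 and 5.65, 8.26 and 6.68, and 7.56 and 8.14 CPM. Both null genotypes lay above both WT libraries, and the changes of 0.40 ± 0.22 and 0.43 ± 0.21 were not called (edgeR adjusted p = 0.361 and 0.326). PCDHB9 footprints were 4.88 and 5.18 CPM in WT, 5.05 and 5.32 in 4EHP-null and 5.04 and 7.21 in GIGYF1/2-null, with overlap and no call (0.05 ± 0.25, edgeR adjusted p = 0.938, and 0.26 ± 0.24, edgeR adjusted p = 0.628). In PCDHA9 those footprints made up 79.7% of the alpha excess, against 7.45% for PCDHA10, so mRNA and footprint counts ranked the alpha rows differently. Where in these rows the footprints lie was not tested, since the tables give 1 count per gene. No member had counts of both kinds at 0 except PCDHB1, and 5 of the 6 members without an RNA-seq count had a footprint.

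**Figure D4:**
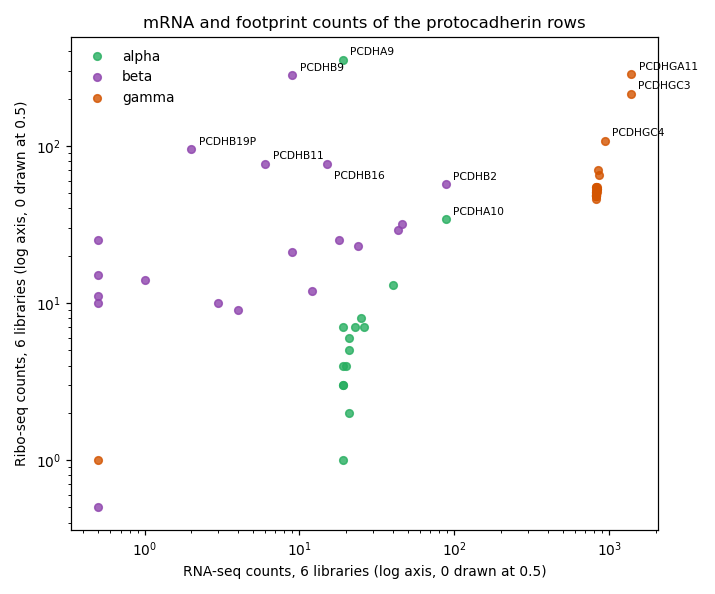
RNA-seq counts (x, log axis) against footprint counts (y, log axis) of the 57 members, each summed over 6 libraries, with 0 drawn at 0.5, coloured by cluster. PCDHA9 and PCDHB9 have 354 and 281 footprints with 19 and 9 RNA-seq counts, while 22 of the 23 gamma rows have 822 or more RNA-seq counts and PCDHGB8P has 0.

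The genes that flank or lie between the clusters did not share the gamma change. There were 27 such genes, of which 21 were tested in RNA-seq. In 4EHP-null 1 was called higher and none lower (median log2 0.04), and in GIGYF1/2-null none higher and 1 lower (median −0.04), beside the 13.1% and 11.9% over all genes. TAF7, a TFIID subunit gene between the beta and gamma clusters, changed by 0.10 ± 0.11 in 4EHP-null and −0.19 ± 0.11 in GIGYF1/2-null, and DIAPH1, a formin gene just beyond the gamma cluster, by 0.05 ± 0.08 and 0.04 ± 0.08, without a call. The called genes were ARAP3 (0.80 ± 0.23, edgeR adjusted p = 0.0424, lost without any 1 library) in 4EHP-null and IK, a splicing factor gene upstream of the alpha cluster (−0.73 ± 0.15, edgeR adjusted p = 0.00794, lost without WT replicate 1 and with DESeq2), in GIGYF1/2-null.

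**Figure D5:**
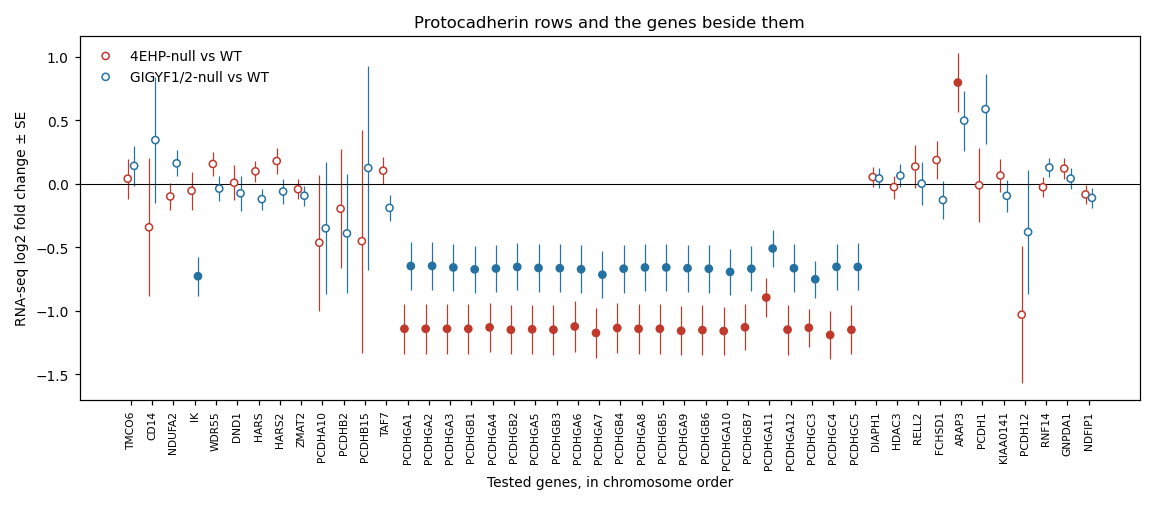
RNA-seq log2 fold changes (y, with standard errors) of the tested members and of the tested genes within and beside the clusters, in chromosome order on the x axis, for 4EHP-null (red) and GIGYF1/2-null (blue) against WT; filled points have an edgeR adjusted p under 0.05. The gamma rows lie at −1.19 to −0.90 and −0.75 to −0.51, between TAF7 and DIAPH1, which lie at −0.19 to 0.10.

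Non-clustered protocadherins, which share no exons with the clusters, changed gene by gene. Of 12 tested in RNA-seq, 2 were called higher and 2 lower in each null genotype, with medians of 0.12 and −0.27, beside 13.1% and 11.9% called over all genes. PCDH19, a gene linked to epilepsy, had 3.31 and 3.43 CPM in WT, 1.55 and 0.918 in 4EHP-null and 4.55 and 3.81 in GIGYF1/2-null. It fell in 4EHP-null (−1.48 ± 0.27, edgeR adjusted p = 0.00358), as did its footprints (−2.74 ± 0.42, edgeR adjusted p = 0.00556, lost without WT replicate 2 or 4EHP-null replicate 2), whereas its GIGYF1/2-null libraries lay above WT. PCDH10 rose in GIGYF1/2-null (82.6 and 86.8 CPM in WT, 152 and 143 CPM, 0.74 ± 0.08, edgeR adjusted p = 9.94e-05), and PCDH7 and PCDH9 fell there (−0.58 ± 0.11, edgeR adjusted p = 0.00397, and −0.64 ± 0.12, edgeR adjusted p = 0.00377). PCDH18, PCDH20 and CDHR1 were called in 4EHP-null and CDHR1 in GIGYF1/2-null, each lost without 1 or more single libraries.

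Genes that act on the clusters or with their proteins were counted from lists of their own. Of 15 CTCF and cohesin genes in RNA-seq, 1 was called higher in 4EHP-null (NIPBL, the cohesin loader, 0.53 ± 0.13, edgeR adjusted p = 0.0166) and 3 lower in GIGYF1/2-null (PDS5B, SMC1A and STAG1, −0.63 to −0.40), beside 13.1% and 11.9% of all genes. CTCF itself was not called (−0.05 ± 0.09 and −0.12 ± 0.09). Of 18 genes of DNA methylation and silencing, 5 were called higher in 4EHP-null (among them ATRX, DNMT1 and UHRF1, 0.52 to 0.79) and 2 lower in GIGYF1/2-null (CBX3 and DNMT1), the latter count close to the 11.9% over all genes and the former above the 13.1%. DNMT1, the maintenance DNA methyltransferase, changed by 0.55 ± 0.11 (edgeR adjusted p = 0.00646) and −0.38 ± 0.11 (edgeR adjusted p = 0.0465), the second not called with RLE or upper-quartile scaling or with only the 2 genotypes fitted. Each call named for these lists was lost when 1 or more single libraries were left out: of 4 such fits per gene, 0 to 3 called it.

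Among 26 protocadherin partners and processing enzymes, 1 was called higher and 2 lower in 4EHP-null, and 1 higher and 3 lower in GIGYF1/2-null, near the 13.1% and 11.9% over all genes. MARCKS, a membrane-bound actin regulator, had 133 and 122 CPM in WT, 151 and 147 in 4EHP-null and 73.9 and 67.9 in GIGYF1/2-null. It fell in GIGYF1/2-null mRNA (−0.90 ± 0.08, edgeR adjusted p = 4.09e-05) and footprints (−1.17 ± 0.14, edgeR adjusted p = 0.00228), and both calls held without any 1 library. Of 14 classical cadherins and catenins tested, 3 were called higher in 4EHP-null and 2 lower in GIGYF1/2-null, again beside 13.1% and 11.9%. CDH2, N-cadherin, rose in 4EHP-null from 97.8 and 90.8 to 138 and 134 CPM (0.48 ± 0.08, edgeR adjusted p = 0.00223) and kept its call without any 1 library.

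The authors' deposited tables of RNA-seq comparisons listed 21 gamma rows each, all with an adjusted p under 0.05, with log2 changes from −1.20 to −0.90 in 4EHP-null and −0.74 to −0.50 in GIGYF1/2-null. The share of all genes listed there with an adjusted p under 0.05 was not counted. These rows share 1 pool of reads, so they are not 21 separate measurements. In the authors' deposited tables of Ribo-seq and TE comparisons PCDHGA11 was the 1 member listed, with log2 changes of −0.65 and −0.30 in Ribo-seq and 0.23 and 0.20 in TE, none with an adjusted p under 0.05.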

How the data were processed

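RNA-seq and Ribo-seq were made from HEK293T cells of 3 genotypes, 2 libraries each. The authors deposited raw counts per gene symbol with no normalization, beside a length in bases for each symbol. The submitters' processing notes name Bowtie2, TopHat2, edgeR and build hg19. The sources used here do not give the counting tool, annotation, strand setting or treatment of reads that map to several genes. Overlapping and near-identical genes are therefore uncertain. In the authors' deposited comparison tables, per the file headers, changes are log2 values beside a p-value and an adjusted p-value. Their TE tables also hold a ratio per group and a dispersion score, per the file headers, which were not used here.

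Counts were analysed with R 4.3.3 and edgeR 4.0.16 (filterByExpr, TMM within each assay, two-sided quasi-likelihood F-test over the 6 libraries of an assay). P-values were Benjamini-Hochberg adjusted over all genes tested and called under 0.05. TE was the interaction over 12 libraries. The standard error was the log2 change divided by the square root of F. Alternatives used limma 3.58.1 and DESeq2 1.42.0. Scripts were tested on simulated data. The rule for named genes took EIF4E2, GIGYF1, GIGYF2, the C-type genes, the 6 highest rows per cluster, up to 4 called rows per direction and up to 3 called genes per list. PCDHGA8 and the rows with high footprints were named after their values were seen, as were the other rows and genes outside this rule. Members and lists were chosen with earlier results of these data known. Promoter coordinates are RefSeq's for GRCh38.p14 and were not joined to the hg19 counts. Both null genotypes were compared with the same WT libraries. Counts carry no molecular identifiers.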

Additional observations from a re-analysis of the deposited data

How the results depend on the processing

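No called member named in the text changed its direction under any alternative run. Counting shared reads once left 3 called rows in RNA-seq for 4EHP-null, 2 for GIGYF1/2-null and 2 in Ribo-seq for 4EHP-null. It merges rows, but PCDHGA11, still a row of its own, also lost both RNA-seq calls and PCDHGC4 its GIGYF1/2-null call. The RNA-seq count for 4EHP-null (22) was 21 to 22 when 1 library was left out. For GIGYF1/2-null (22) it was 14 with upper-quartile scaling, 3 with DESeq2 and 1 to 10 when 1 library was left out. Between the null genotypes (0) it was 1 with upper-quartile scaling and 1 without a low-count filter. In Ribo-seq the count for 4EHP-null (3) was 9 without a low-count filter, 1 with DESeq2, 5 with the 2 genotypes alone and 0 to 1 when 1 library was left out, and for GIGYF1/2-null (0) it was 2 without a filter. The causes were not tested, and the share of all genes called was not counted for any alternative run. All TE counts stayed at 0.

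In the labels same-numbered libraries share only a number. Their deviations correlated at 0.07 to 0.18 in RNA-seq and, over 0.1 for each pair of genotypes, at 0.149 to 0.314 in Ribo-seq. With the replicate number as a block, the Ribo-seq counts became 18 for 4EHP-null and 14 for GIGYF1/2-null and the RNA-seq count between the null genotypes became 1, while the RNA-seq counts against WT stayed at 22. Fits without 1 library assume that the lone library varies like the others. Summed clusters give no count of calls.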

Other observations

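Low RNA-seq counts of the alpha and beta rows were mostly even numbers. Of their 127 RNA-seq values from 1 to 20, 97 (76.4%) were even, against 55.3% of such values over all genes, and in Ribo-seq 45.0% were even, against 43.9% over all genes. Alpha rows repeat the same reads, so these values are not independent.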
